A study of Rattus norvegicus with 12 samples.

Results

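The genes examined here encode glutamate receptors, the receptor-associated proteins Cacng2, Cnih2 and Nsg1, the scaffold of the postsynaptic density and the kinase CaMKII. They were chosen by name as a list of 39 genes, and all 39 were found among the 28111 gene names of the 12 expression files. Rows of the same name were summed, which concerned 1 of the 39. A mean of at least 1 TPM over the 12 libraries was reached by 37 of them, and these 37 entered the tests together with the rest of the 12861 genes at that level. TPM, the transcript abundance scaled to a fixed total per library, is a relative level per transcript length, so levels of different genes can be set side by side on this scale.

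The cells were primary neuroglial cultures of rat cerebral cortex, prepared from newborn pups (postnatal day 0 in the labels) and used at day 10 in vitro. The intact control (IC) received no addition. The other cultures received products of human glial progenitor cells derived from induced pluripotent stem cells: extracellular vesicles (EV) at 10 µg/mL, proteins of 3–100 kDa from their conditioned medium at 15 µg/mL, or the whole secretome at 45 µg/mL (total secretome). RNA of these cultures was taken 4 h after the addition, and each of the 4 groups had 3 libraries. The concentrations differed between the additions, so a comparison between treatments was also a comparison between doses. The study's methods say of its experiments in general that they were repeated on unrelated cultures, and the study names a day covariate for a plot of IC and EV. Which library belongs to which culture or day is not given in the sources used here, so the p-values measure the spread between these libraries, whatever its source. The cultures mixed neurons and glia, and in such bulk RNA fewer cells of a type and less RNA per cell cannot be told apart.

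Glutamate released by a presynaptic neuron opens the ionotropic AMPA, NMDA and kainate receptors, which are ion channels built from the Gria, Grin and Grik subunits. It also acts on metabotropic receptors (Grm), which signal through G proteins. Beneath the membrane, MAGUK proteins (Dlg) bind the receptor tails, SAPAP proteins (Dlgap) connect them to the Shank proteins, and Homer proteins link Shank to group I metabotropic receptors. CaMKII, the calcium-dependent kinase encoded by Camk2a and Camk2b, is one of the most abundant proteins of this density and is required for long-term potentiation of cortical synapses.

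Promoter sequences show what surrounds the start of some of these genes. The RefSeq table of build GRCr8 held the window from 250 bases before to 50 bases after the start for 24 of the 39 genes, Dlgap2 not among them. Printed are Dlg1, a MAGUK with a difference over 1.5-fold against the control that did not pass the test, and Grin1, the subunit that every NMDA receptor contains and whose fold changes against the control were small. Nptx2, the secreted pentraxin that gathers AMPA receptors, is shown beside them because it is not one of the 39 genes and rose in all 3 comparisons with the control. These 3 were chosen after their values had been seen. Capitals mark matches on either strand to any of 4 motifs. The short cAMP response element was searched as TGACG. The full cAMP response element was searched as TGACGTCA, and each match to it also contains the short one. The AP-1 element was searched as TGAGTCA. The Egr element was searched as GCGGGGGCG. Dlg1 is at chr11:82607748-82608047 on the minus strand, Grin1 at chr3:28528705-28529004 on the minus strand and Nptx2 at chr12:15161996-15162295 on the minus strand. The coordinates are those of GRCr8, whereas the expression values were made on Rnor_6.0.
Dlg1: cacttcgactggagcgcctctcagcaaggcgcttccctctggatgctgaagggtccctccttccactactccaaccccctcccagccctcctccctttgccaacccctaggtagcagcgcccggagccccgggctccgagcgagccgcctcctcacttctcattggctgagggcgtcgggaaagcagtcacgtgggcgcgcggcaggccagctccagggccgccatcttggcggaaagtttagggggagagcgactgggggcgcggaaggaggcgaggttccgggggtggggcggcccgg
Grin1: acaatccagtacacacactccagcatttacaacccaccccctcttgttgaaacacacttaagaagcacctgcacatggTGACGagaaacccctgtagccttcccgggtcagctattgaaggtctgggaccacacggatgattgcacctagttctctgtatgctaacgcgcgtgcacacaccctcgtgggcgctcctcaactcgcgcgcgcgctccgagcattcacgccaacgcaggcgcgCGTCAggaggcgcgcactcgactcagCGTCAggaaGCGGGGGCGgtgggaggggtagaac
Nptx2: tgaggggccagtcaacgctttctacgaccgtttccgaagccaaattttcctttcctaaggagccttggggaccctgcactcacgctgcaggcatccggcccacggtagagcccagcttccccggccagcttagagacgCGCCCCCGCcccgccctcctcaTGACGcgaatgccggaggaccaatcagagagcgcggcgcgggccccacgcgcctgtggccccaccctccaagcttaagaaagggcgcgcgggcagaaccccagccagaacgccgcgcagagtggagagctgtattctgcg
The Dlg1 window held no match, the Grin1 window 3 matches to the short cAMP response element and 1 to the Egr element, and the Nptx2 window 1 match to each of these motifs. Among all 33469 windows of this length, 21.2% held the short and 1.83% the full cAMP response element, 4.63% the AP-1 element and 2.73% the Egr element. Among the 25 windows of the 24 genes (Dlgap1 has more than 1 window), 4 held the short cAMP response element, those of Camk2a, Grik2, Grin1 and Nsg1. The AP-1 element was in 1 of the 25, a window of Dlgap1, the Egr element in 1, that of Grin1, and the full cAMP response element in 0. A match is a string of letters and does not show binding.

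The labelled neuroglial culture was checked against marker genes. All 10 neuronal markers were present in all 12 libraries, among them Tubb3 at 1017 to 1576 TPM and Rbfox3 at 67.7 to 95.1 TPM, as was Slc17a7, the vesicular glutamate transporter of cortical excitatory neurons, at 54.0 to 85.3 TPM. The summed TPM of the neuronal markers was 3805 to 4101 in IC, 3707 to 4110 in EV, 3235 to 3916 with the 3–100 kDa proteins and 3174 to 4041 with the secretome. The 9 astrocyte markers summed to 1484–1900, 1748–2228, 1686–2133 and 1968–2336 TPM in the same order. The 6 GABAergic markers summed to 662–832, 682–756, 671–751 and 674–708 TPM, the 5 listed markers of glutamatergic neurons to 272–431, 335–416, 323–437 and 248–455 TPM, and the 8 markers of the oligodendrocyte lineage to 183–236, 193–232, 124–189 and 238–265 TPM. No microglial or endothelial marker reached a mean of 1 TPM, with sums of at most 2.20 and 0.758 TPM, and each of these markers was listed at 0 in at least 1 library. The 6 fibroblast and meningeal markers summed to at most 4.28 TPM in any library. Among all these markers the tests called Nefm, a neurofilament subunit, and Pdgfrb, a pericyte receptor. Nefm measured 23.8, 18.0 and 20.1 TPM in IC, 24.9, 16.9 and 21.8 in EV, 38.4, 37.2 and 31.3 with the 3–100 kDa proteins and 42.2, 32.2 and 28.9 with the secretome, both above the control and EV. It rose by 0.79 on the log2 scale with the 3–100 kDa proteins (limma adjusted p = 0.0162) and by 0.72 with the secretome (limma adjusted p = 0.0354). Pdgfrb measured 3.18, 4.01 and 2.45 TPM in IC, 1.12, 1.73 and 0.960 in EV, 0.481, 0.852 and 0.321 with the 3–100 kDa proteins and 1.34, 1.029 and 1.20 with the secretome, all below the control. It fell by 1.43 (limma adjusted p = 0.00292) and by 0.91 (limma adjusted p = 0.0438). Without 1 library, the Nefm call was lost in 3 cases with the 3–100 kDa proteins (control replicate 2 and treated replicates 2 and 3, highest adjusted p 0.0621) and in 10 with the secretome (each library except EV replicates 1 and 2, highest adjusted p 0.122). The Pdgfrb call with the secretome was lost without any 1 of the 12 libraries (limma adjusted p of 0.0512 to 0.166). Over the leave-outs the log2 fold changes of Nefm were 0.70 to 0.85 with the 3–100 kDa proteins and 0.62 to 0.78 with the secretome. Those of Pdgfrb with the secretome were −1.01 to −0.78. The part of cell composition in the values below was not tested. Each library sums to 1000000 TPM, a unit that holds no read depth, so how deeply a value was sampled is unknown. A listed 0 may be a failed estimate, since even the ribosomal gene Rps6 had 0 throughout the 12 libraries.

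Some libraries stood apart over the 37 genes. In IC replicate 2, 28 of 37 genes were below the mean of their group, with a median deviation of −0.20 on the log2(TPM + 1) scale. In EV replicate 1, 27 were below it, with a median of −0.21, while in IC replicate 3, 29 were above it, with a median of 0.20. Over all genes tested the median deviation was within 0.01 of 0 in every library. IC replicate 2 also stood apart in cell type markers, with a median deviation of −0.16 for the neuronal ones and Gfap, an astrocyte filament gene, at 361 TPM, beside 85.1 and 128 TPM in the other controls. In EV replicate 1 the neuronal markers deviated by 0.08, and Gfap, at 491 TPM, lay between the other EV libraries (617 and 362 TPM). Grm5, Grm7 and Grin2a had their lowest value of the group in IC replicate 2 and EV replicate 1, whereas Nsg1 and Cnih2 had their highest there. Secretome replicate 2 also had 28 genes below its group mean, with a smaller median of −0.07.

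**Figure D1:**
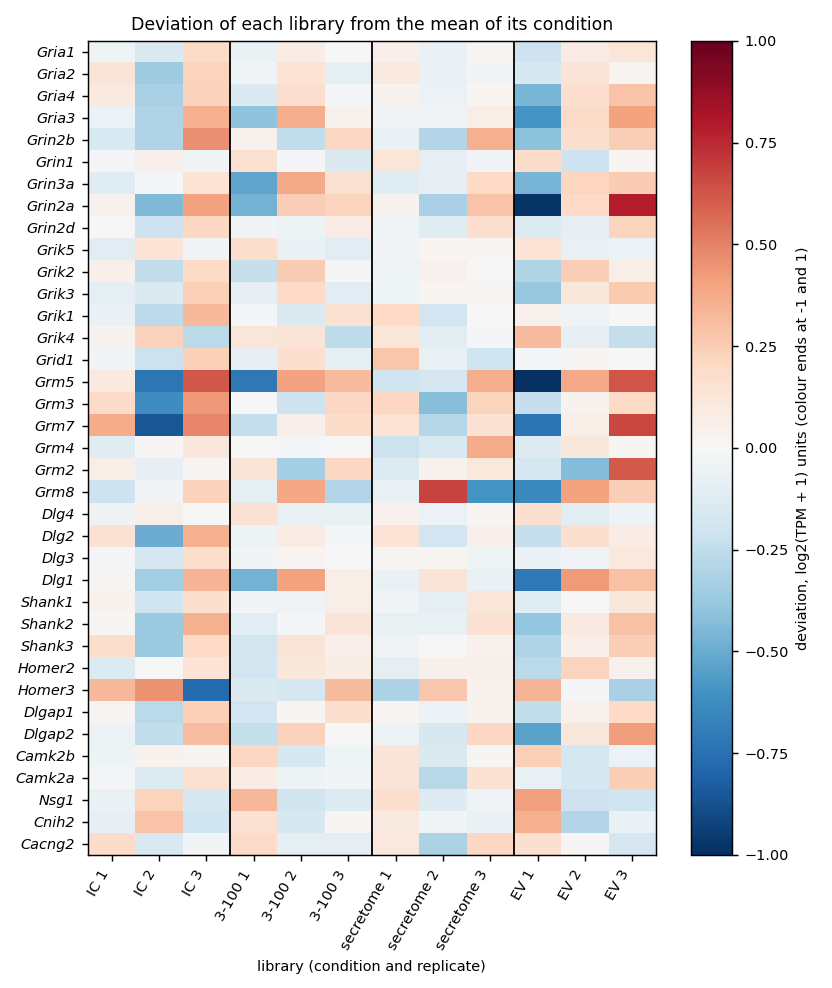
Deviation of each of the 37 genes from the mean of its condition in each of the 12 libraries, on the log2(TPM + 1) scale after rescaling (colour, red above and blue below the mean, columns in order of condition and replicate). IC replicate 2 and EV replicate 1 are blue for most genes and IC replicate 3 is red for most, with Nsg1 and Cnih2 running the other way.

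The culture expressed members of every class, over a wide range of levels. The highest was Nsg1, a neuronal endosomal protein that takes part in AMPA receptor recycling, with a mean of 595 TPM over the 12 libraries. Camk2b followed with 299 TPM, Cnih2, an AMPA receptor auxiliary protein, with 238 TPM, and Dlg4, which encodes PSD-95, with 229 TPM. Among the receptors Gria1 (125 TPM) and Gria2 (114 TPM) were highest, ahead of Grin2b (80.2 TPM) and Grin1 (69.8 TPM). Gria1 and Gria2 differed by less than their spread over libraries (100 to 153 and 91.3 to 136 TPM), as did Grin2b and Grin1 (57.7 to 108 and 57.1 to 79.9 TPM). Grin2c, a subunit best known from cerebellum, ranged from 0.358 to 1.30 TPM with a mean of 0.661. Grin3b ranged from a listed 0 to 0.0848 TPM. These were the 2 genes below the level set for the tests.

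**Figure D2:**
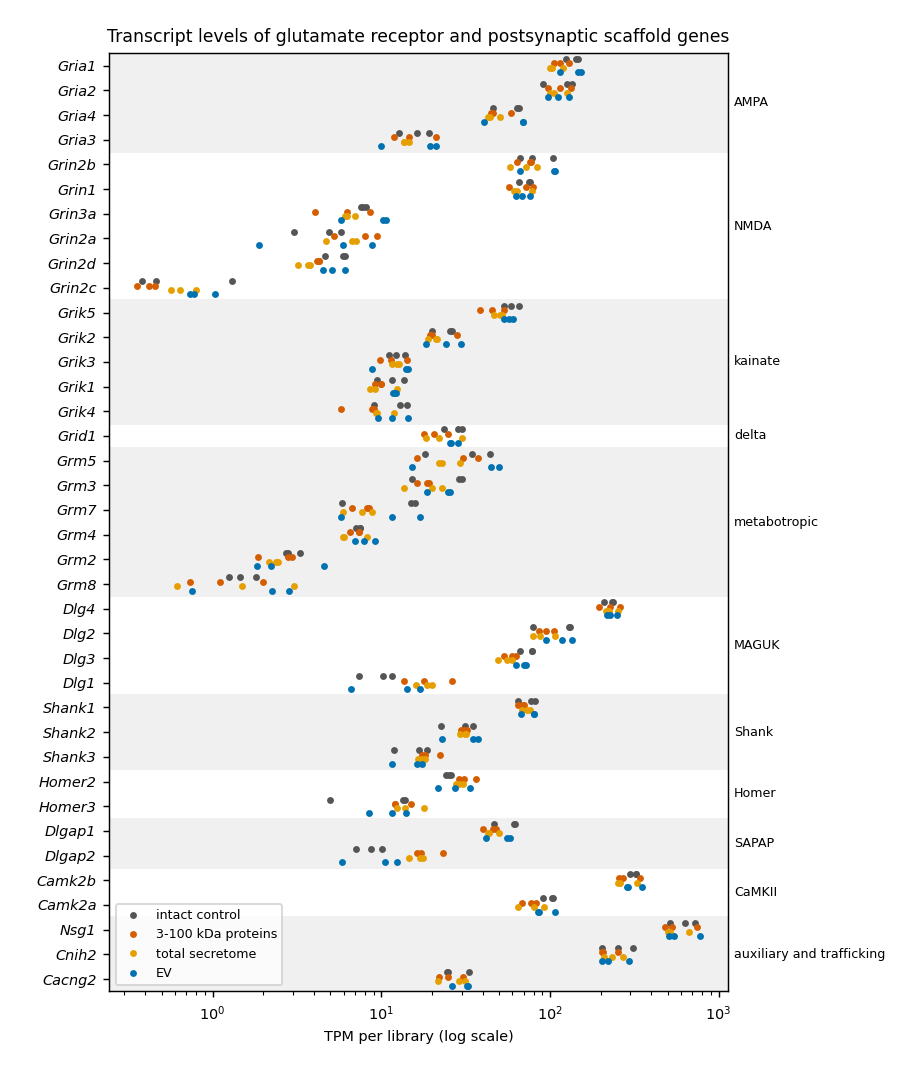
Level of each gene in TPM on a log axis, with 1 point per library and 1 colour per condition, ordered by class and mean. Grin3b is left out because several of its values are listed at 0. Points of the 4 conditions lie over each other for most genes, while those of Dlgap2 and Dlg1 with the 3–100 kDa proteins and the secretome lie to the right of the control points.

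Shares of the summed TPM of a family describe its make-up. Grin2b gave 82.0 to 90.1% of the summed TPM of Grin2a to Grin2d in every library, Grin2a 2.54 to 12.1% and Grin2d 3.97 to 6.55%. Gria1 gave 37.8 to 45.5% of the summed AMPA subunits, Gria2 32.1 to 40.8%, Gria4 15.5 to 19.9% and Gria3 3.80 to 6.20%. Grik5 gave 43.0 to 54.5% of the kainate subunits, Shank1 56.3 to 66.3% of the Shank transcripts and Camk2b 73.0 to 80.5% of both CaMKII transcripts. In the SAPAP pair, Dlgap2 gave 12.5 to 14.0% of Dlgap1 plus Dlgap2 in IC and 12.3 to 17.7% in EV, but 27.2 to 32.8% with the 3–100 kDa proteins and 25.1 to 29.1% with the secretome. Neither treated range overlapped that of the control or of EV. Dlg1 gave 1.88 to 2.66% of the MAGUK transcripts in IC, 3.17 to 6.24% with the 3–100 kDa proteins and 4.22 to 5.28% with the secretome, with EV at 1.59 to 3.81%, which overlapped the range of the 3–100 kDa proteins.

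Against the intact control, 1 of the 37 genes passed the test: Dlgap2 rose with the 3–100 kDa proteins. The other 36 are not shown to be without change, as the intervals given further on show. After EV, none of the 37 passed the threshold, whereas 0.428% of all 12861 genes tested did (55 genes). With the 3–100 kDa proteins 1 of 37 passed beside 7.0% of all genes, and with the secretome 0 of 37 beside 4.13%. With the replicate number as a block over the 12 libraries, 2 of 37 passed with the secretome, beside 6.6% of all genes: Dlgap2 (limma adjusted p = 0.0326) and Dlg3 (0.0422). Tests were made with limma on log2(TPM + 1) over all 12 libraries, with Benjamini-Hochberg adjustment over all genes tested and an FDR threshold of 0.05. This scale understates the change of genes with low levels.

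At an unadjusted limma p under 0.05, the numbers were 0 of 37 genes after EV (4.08% of all genes), 8 with the 3–100 kDa proteins (19.8%) and 5 with the secretome (16.8%). These counts moved with single libraries. For the 3–100 kDa proteins the count was 5 without control replicate 1 (beside 16.8% of all genes), control replicate 3 (18.8%) or treated replicate 2 (14.8%). It was 4 without treated replicate 3 (15.4%) and 10 without control replicate 2 (19.9%). With the secretome it was 11 without control replicate 2 (18.5%) and 3 without control replicate 3 (14.9%), and after EV it was 1 without EV replicate 1 (7.08%). No gene had EV libraries entirely above or entirely below those of the control, which was so for 3.3% (above) and 1.79% (below) of all genes. With the 3–100 kDa proteins, Dlg1, Homer2 and Dlgap2 lay entirely above the control (3 of 37, beside 10.5% of all genes), and Grin2d, Grik5, Dlg3 and Camk2a entirely below it (4 of 37, beside 9.77%). With the secretome, the same 3 genes lay above (11.4% of all genes) and Gria1, Grin2d, Grin3a, Grik5, Grm2 and Dlg3 below (6 of 37, beside 8.72%). The comparisons share the control libraries, so the genes they have in common are not separate observations.

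The direction over the list was counted too. After EV 19 of 37 genes had a log2 fold change below 0, with a median of −0.003, beside 49.1% of all genes and a median of 0.003. The count above 0 was 18 with all 12 libraries, 26 without control replicate 3 (beside 52.2% of all genes), 25 without EV replicate 1 (50.9%), and 13 without control replicate 2 (49.3%) or EV replicate 3 (49.8%). With the 3–100 kDa proteins 28 of 37 were below 0, with a median of −0.14, beside 52.7% of all genes and a median of −0.02. With the secretome 26 of 37 were below 0, with a median of −0.16, beside 51.7% and a median of −0.01. The medians of the cell type markers, of which only Nefm and Pdgfrb passed the test, stand beside these. With the secretome the median log2 fold change was −0.09 for the neuronal markers, −0.20 for those of glutamatergic neurons, −0.17 for the GABAergic ones, 0.27 for the astrocyte ones and 0.27 for the oligodendrocyte lineage. For the 3–100 kDa proteins these medians were −0.06, 0.02, −0.04, 0.19 and −0.41. Their part in the medians of the list was not tested. Leaving out each library in turn gave medians from −0.08 to 0.10 after EV, from −0.18 to −0.04 with the 3–100 kDa proteins and from −0.17 to −0.08 with the secretome. The values of −0.04 and −0.08 came without control replicate 3, and the secretome median was −0.09 without secretome replicate 2. Without control replicate 3 the counts below 0 were 22 of 37 with the 3–100 kDa proteins and 21 of 37 with the secretome. In those fits 48.3% and 49.0% of all genes were above 0. Without any other single library both counts were 26 or more. The 95% interval of the difference lay within 2-fold for 36 of 37 genes after EV, with Grm5 the exception (log2 interval −0.92 to 1.12), and within 1.5-fold for 25. With the 3–100 kDa proteins the intervals of 31 genes lay within 2-fold and of 15 within 1.5-fold, and with the secretome those of 31 and 17.

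**Figure D3:**
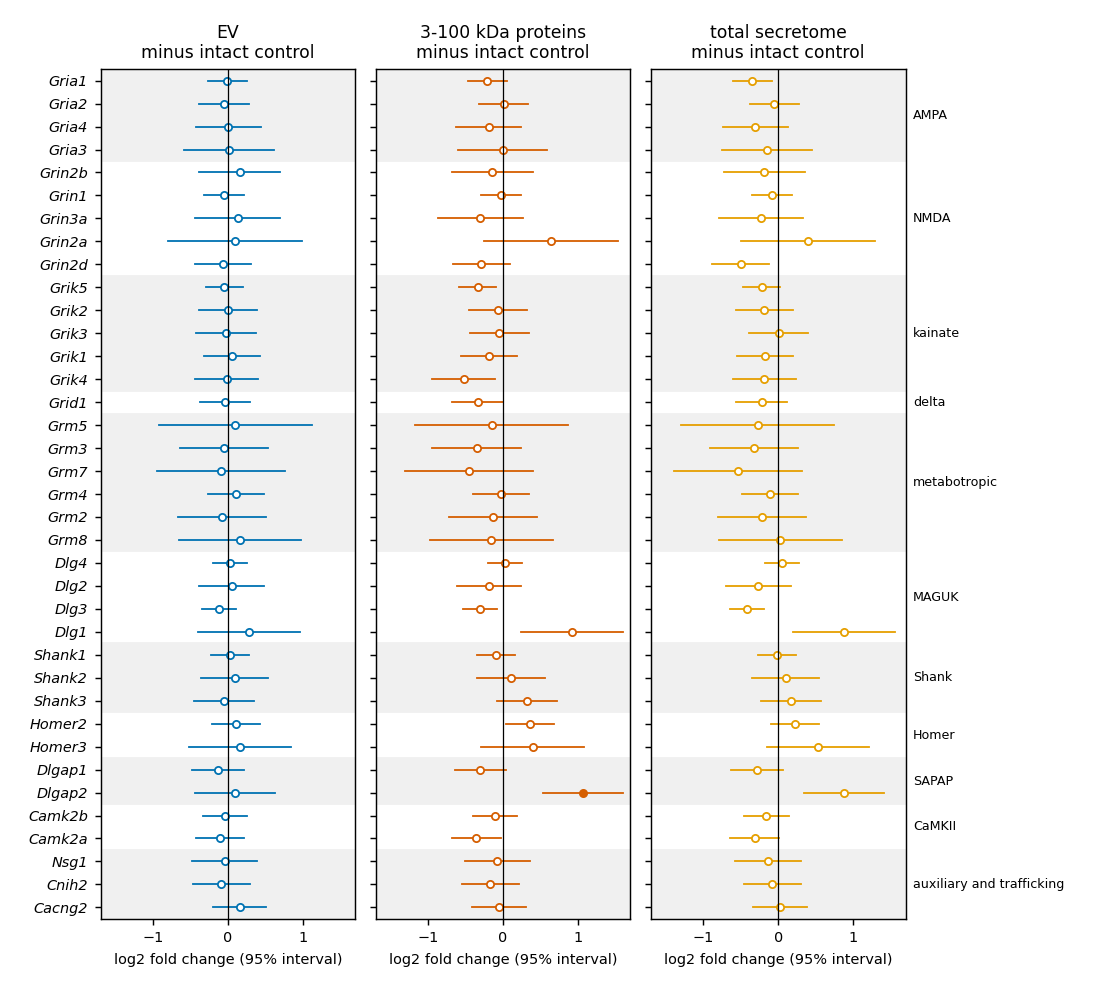
Log2 fold change against the intact control (points) with 95% limma interval (lines) for the 37 genes after EV, the 3–100 kDa proteins and the total secretome, ordered by class. The filled point is Dlgap2 with the 3–100 kDa proteins (1.06), the single gene past the FDR threshold; open points did not pass.

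The AMPA receptor subunits carry fast excitatory transmission. Gria1, the subunit most closely tied to activity-dependent insertion, measured 142, 125 and 147 TPM in IC, 115, 153 and 146 in EV, 115, 129 and 106.0 with the 3–100 kDa proteins and 119, 102 and 100.1 with the secretome. The secretome libraries lay below all control libraries, and the EV libraries spread over the control range. The log2 fold change of the secretome was −0.34 ± 0.12 (SE) and did not pass (limma adjusted p = 0.150), that of the 3–100 kDa proteins was −0.21 ± 0.12 (limma adjusted p = 0.374) and that of EV −0.01 ± 0.12. Gria2, which makes the channel impermeable to calcium once edited, Gria3 and Gria4 had log2 fold changes between −0.31 and 0.02 in the 3 comparisons, with none passing. The 4 AMPA transcripts together summed to 331 ± 47.6 TPM (SD, n = 3) in IC, 327 ± 56.8 in EV, 298 ± 40.4 with the 3–100 kDa proteins and 278 ± 28.6 with the secretome.

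NMDA receptors are calcium-permeable channels that need both glutamate and a co-agonist. Grin2b, the Grin2 subunit typical of early postnatal cortex, measured 78.0, 66.6 and 105 TPM in IC, 66.4, 108 and 106.1 in EV, 77.2, 63.9 and 76.3 with the 3–100 kDa proteins and 72.6, 57.7 and 84.2 with the secretome. All 4 groups overlapped. Its log2 fold changes were 0.16, −0.15 and −0.19 (SE 0.25 each) for EV, the 3–100 kDa proteins and the secretome, and none passed. Grin2d, a subunit of interneurons and of early development, had a log2 fold change of −0.50 ± 0.17 with the secretome (limma adjusted p = 0.149). It ranged from 4.67 to 6.09 TPM in the control and from 3.20 to 3.80 TPM with the secretome. Grin2a, the subunit that gains on Grin2b as cortex matures, had the highest value of the class, 0.64 ± 0.41 with the 3–100 kDa proteins, but its interval ran from −0.25 to 1.54.

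Kainate receptors act on both sides of the synapse, and Grid1 encodes a delta receptor that organises synapses through cerebellins. Grik5, a high-affinity subunit that needs a partner such as Grik2, measured 58.5, 65.5 and 53.6 TPM in IC, 60.8, 56.9 and 53.6 in EV, 53.2, 45.6 and 38.6 with the 3–100 kDa proteins and 52.2, 50.7 and 46.8 with the secretome. Every library of the 3–100 kDa proteins and of the secretome lay below the control libraries, by a margin under 1 TPM with the 3–100 kDa proteins. The log2 fold changes of −0.34 ± 0.11 (limma adjusted p = 0.101) and −0.22 ± 0.11 (limma adjusted p = 0.367) did not pass. Grik4, the other high-affinity subunit, had −0.53 ± 0.19 with the 3–100 kDa proteins (limma adjusted p = 0.138). All 5 kainate genes were below 0 with the 3–100 kDa proteins, 4 of 5 with the secretome and 4 of 5 after EV, and their sum was 119 ± 3.14 TPM in IC, 117 ± 6.09 in EV, 97.7 ± 11.9 with the 3–100 kDa proteins and 103 ± 7.42 with the secretome. Grid1 measured 28.6, 23.6 and 30.3 TPM in IC, 25.6, 28.4 and 26.0 in EV, 20.5, 24.9 and 18.0 with the 3–100 kDa proteins and 30.1, 21.9 and 18.4 with the secretome. Each treated group overlapped the control, and the EV libraries lay above those of the 3–100 kDa proteins. Its lowest adjusted p against the control was 0.247 (limma, 3–100 kDa proteins, −0.34 ± 0.15).

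Metabotropic receptors modulate transmission and are expressed by neurons and glia. Grm5, the postsynaptic receptor that couples to calcium stores and binds Homer, measured 34.6, 18.1 and 44.1 TPM in IC, 15.3, 44.8 and 49.6 in EV, 16.4, 37.4 and 30.5 with the 3–100 kDa proteins and 22.9, 21.9 and 29.5 with the secretome. It varied 3.25-fold between libraries, and the lowest value was in EV replicate 1 and the next ones in replicates of the other groups, so no group stood apart. With log2 fold changes of 0.10, −0.15 and −0.27 and an SE of 0.46, a change of less than about 2-fold in Grm5 was not detectable here. The other 5 genes, Grm2, Grm3, Grm4, Grm7 and Grm8, are receptors that lower transmitter release or cAMP, and none passed in any comparison. All 6 metabotropic genes were below 0 with the 3–100 kDa proteins and 5 of 6 with the secretome, with class medians of −0.16 and −0.25.

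The SAPAP gene Dlgap2 passed the test against the control with the 3–100 kDa proteins. It measured 8.71, 7.12 and 10.1 TPM in IC, 5.86, 10.6 and 12.4 in EV, 16.2, 23.2 and 17.1 with the 3–100 kDa proteins and 16.9, 14.6 and 17.7 with the secretome. All 6 libraries of the 3–100 kDa proteins and the secretome were above all 6 of the control and EV. It rose with the 3–100 kDa proteins by 1.06 ± 0.24 on the log2 scale (95% interval 0.53 to 1.60, limma adjusted p = 0.0243). With the secretome the log2 fold change was 0.88 ± 0.24 and did not pass (limma adjusted p = 0.0748), and after EV it was 0.09 ± 0.24 (interval −0.44 to 0.63). The call with the 3–100 kDa proteins was lost without control replicate 1 (limma adjusted p = 0.0824), control replicate 2 (0.0745), treated replicate 2 (0.108) or treated replicate 3 (0.0843), with log2 fold changes of 0.94 to 1.22 over all leave-outs, and without EV replicate 1 it was 0.00654. With the replicate number as a block over the 12 libraries, Dlgap2 passed with the secretome as well (limma adjusted p = 0.0326). It did not in the blocked fit of the 6 secretome and control libraries alone (0.0518). No label says what a replicate number stands for. With no block, Dlgap2 passed with the secretome when EV replicate 1 was left out (limma adjusted p = 0.0246). It had 0.164 without control replicate 2, 0.204 without control replicate 1 and 0.242 without secretome replicate 3. Dlgap1, the more abundant SAPAP gene, measured 61.0, 46.9 and 62.2 TPM in IC, 41.8, 55.7 and 57.6 in EV, 40.3, 47.6 and 45.8 with the 3–100 kDa proteins and 49.7, 43.8 and 43.1 with the secretome. Its groups overlapped, and its log2 fold changes of −0.30 ± 0.16 and −0.28 ± 0.16 had the opposite sign to those of Dlgap2.

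**Figure D4:**
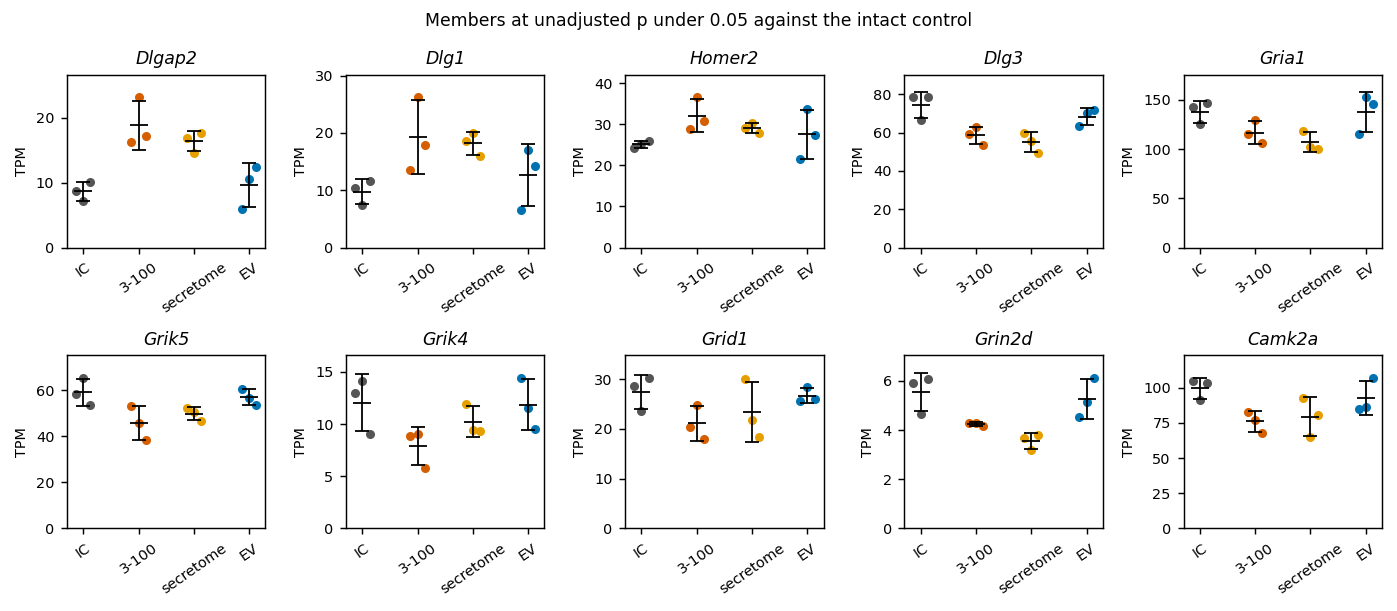
TPM in each library (points), with mean and SD of the 3 libraries (bars), for the 10 genes at an unadjusted p under 0.05 in a comparison with the intact control. Dlgap2 and Dlg1 are higher with the 3–100 kDa proteins and the secretome than in the control, and the points of Dlg3, Grik5 and Camk2a with the 3–100 kDa proteins lie below the control points.

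Among the MAGUK genes, Dlg1 and Dlg3 differed from the control in opposite directions and neither passed. Dlg1, which encodes SAP97, a carrier of AMPA receptors to the synapse, measured 10.3, 7.34 and 11.5 TPM in IC, 6.59, 17.1 and 14.3 in EV, 13.6, 26.3 and 17.8 with the 3–100 kDa proteins and 18.6, 20.0 and 16.1 with the secretome. The log2 fold changes were 0.92 ± 0.31 with the 3–100 kDa proteins (limma adjusted p = 0.114) and 0.88 ± 0.31 with the secretome (limma adjusted p = 0.163), both over 1.5-fold. Without EV replicate 1, whose value was the lowest of all 12, the first passed (limma adjusted p = 0.0351), and without control replicate 2 it was 0.74 (limma adjusted p = 0.257). Dlg3, which encodes SAP102, the MAGUK of immature synapses, measured 78.6, 66.5 and 78.5 TPM in IC, 63.3, 70.3 and 71.9 in EV, 59.4, 62.8 and 53.7 with the 3–100 kDa proteins and 59.9, 55.8 and 49.4 with the secretome. Both treated groups lay below the control. The log2 fold change of the secretome was −0.41 ± 0.10 with a limma adjusted p of 0.0518, just above the threshold. It passed with the replicate block over 12 libraries (limma adjusted p = 0.0422), without control replicate 2 (0.0251) and without EV replicate 1 (0.0470), and did not in the blocked fit of the 6 libraries (0.188). With the 3–100 kDa proteins it was −0.31 ± 0.10 (limma adjusted p = 0.108), or −0.39 without control replicate 2 (0.0471). Dlg4 measured 233, 238 and 211 TPM in IC, 250.3, 226 and 219 in EV, 260.0, 226 and 197 with the 3–100 kDa proteins and 255, 223 and 217 with the secretome. These overlapped throughout, and each of its 3 intervals lay between −0.20 and 0.27.

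The Shank and Homer proteins form the deeper layer of the density. Shank1 measured 81.1, 65.1 and 77.7 TPM in IC, 67.8, 80.1 and 80.4 in EV, 69.5, 70.3 and 64.9 with the 3–100 kDa proteins and 76.6, 68.0 and 73.4 with the secretome, with intervals between −0.35 and 0.28. Shank2 and Shank3 did not pass in any comparison. Homer2, a constitutive long-form Homer, measured 24.3, 25.2 and 25.9 TPM in IC, 21.7, 33.6 and 27.4 in EV, 28.9, 36.6 and 30.8 with the 3–100 kDa proteins and 29.1, 30.4 and 27.9 with the secretome. The control values were close together and on deposited TPM lay below both treated groups, while after rescaling the secretome overlapped the control. The log2 fold changes of 0.36 ± 0.15 (limma adjusted p = 0.186) and 0.22 ± 0.15 (0.503) did not pass. Homer3 did not pass in any comparison either, and its values were 5.0 TPM in IC replicate 3 and 8.48 to 17.8 TPM in the other 11 libraries.

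Camk2b, Nsg1 and Cnih2 were the most abundant transcripts of the list. Camk2b, the isoform that binds actin, measured 326, 326 and 299 TPM in IC, 352, 287 and 289 in EV, 343, 270.2 and 256 with the 3–100 kDa proteins and 329, 255 and 262 with the secretome. All groups overlapped. Camk2a, the isoform that rises with cortical maturation, was 91.1–105 TPM in IC, 85.1–107 in EV, 68.1–83.0 with the 3–100 kDa proteins and 65.1–92.5 with the secretome. Its log2 fold changes of −0.36 ± 0.15 (limma adjusted p = 0.199) and −0.32 ± 0.15 (0.310) did not pass. Nsg1 measured 631, 725 and 517 TPM in IC, 775, 547 and 509 in EV, 750, 528 and 478 with the 3–100 kDa proteins and 668, 512 and 502 with the secretome, again with all groups overlapping. Cnih2 and Cacng2, which encodes stargazin, likewise did not pass in any comparison.

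Between the treatments, none of the 37 genes passed. Comparing EV with the 3–100 kDa proteins, 0 of 37 passed beside 1.47% of all genes, and 3 (Grik4, Grik5 and Dlgap2) had an unadjusted p under 0.05 beside 11.7%. With the replicate number as a block, the unadjusted count was 6 over the 12 libraries (15.0% of all genes) and 9 in the fit of the 6 libraries (20.7%). Comparing EV with the secretome, 0 of 37 passed beside 0.451%, and 4 (Gria1, Grin2d, Dlg3 and Dlgap2) had an unadjusted p under 0.05 beside 9.66%. Comparing the secretome with the 3–100 kDa proteins, 0 of 37 passed beside 0.0%, and 0 had an unadjusted p under 0.05 beside 1.94% (250 genes). Dlgap2 was lower in EV than with the 3–100 kDa proteins by a log2 difference of −0.97 ± 0.24 (limma adjusted p = 0.0873) and than with the secretome by −0.79 ± 0.24 (limma adjusted p = 0.272). With the replicate block over 12 libraries the first of these differences passed (limma adjusted p = 0.0401), while in the blocked fit of the 6 libraries it had 0.0559. Without EV replicate 1, in which Dlgap2 was lowest, the difference was −0.70 (limma adjusted p = 0.169), and that from the secretome was −0.52. Dlgap2 differed between the secretome and the 3–100 kDa proteins by −0.18, with an interval from −0.72 to 0.35. Over the list, 28 of 37 genes were higher in EV than with the 3–100 kDa proteins (median log2 difference 0.13), beside 51.7% of all genes and a median of 0.01. Against the secretome 27 of 37 were higher in EV (median 0.15), beside 49.4% and a median of −0.002. The marker medians for EV against the 3–100 kDa proteins were 0.07 for neurons, 0.13 for glutamatergic and −0.10 for GABAergic neurons, −0.11 for astrocytes and 0.33 for the oligodendrocyte lineage, and against the secretome 0.10, 0.19, 0.09, −0.20 and −0.26. Their part in these differences was not tested. Without EV replicate 1 the medians of the list were 0.22 and 0.19, and without EV replicate 3 they were 0.07 and 0.09. The 3 genes at an unadjusted p under 0.05 between EV and the 3–100 kDa proteins became 6 without EV replicate 3 (beside 11.0% of all genes) or replicate 1 of the 3–100 kDa proteins (12.8%). They became 5 without EV replicate 2 (10.8%) and 1 without replicate 3 of the 3–100 kDa proteins (8.82%). The 4 between EV and the secretome became 7 without EV replicate 1 (11.7%), 2 without secretome replicate 2 (5.91%) and 1 without EV replicate 3 (8.04%).

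Some of the genes around the receptors changed as well. A list of 57 other genes, called other postsynaptic genes here, was written from general knowledge with earlier results of these data known. It included the secreted pentraxins Nptx1 and Nptx2. The list held 53 names of the files, of which 52 were tested. With the 3–100 kDa proteins 5 of 52 rose and 1 fell, beside the 7.0% of all genes called in that comparison. With the secretome 3 of 52 rose and 0 fell, beside 4.13% of all genes, and after EV 1 of 52 rose and 0 fell, beside 0.428%. The list medians were −0.06, 0.001 and 0.03 on the log2 scale in the same order.

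Arc, Nptx2 and Homer1 are known as genes induced by neuronal activity. Arc, an immediate early gene that drives AMPA receptor endocytosis, measured 0.622, 0.727 and 1.12 TPM in IC, 0.903, 1.83 and 1.502 in EV, 5.69, 12.1 and 12.5 with the 3–100 kDa proteins and 3.77, 8.33 and 7.27 with the secretome. It rose by 2.56 ± 0.35 on the log2(TPM + 1) scale (limma adjusted p = 0.00136) and by 1.99 ± 0.35 (limma adjusted p = 0.00949), while the EV values overlapped the control. Nptx2 measured 7.59, 6.52 and 5.50 TPM in IC, 12.5, 18.5 and 14.6 in EV, 33.4, 39.2 and 37.3 with the 3–100 kDa proteins and 30.5, 37.4 and 32.3 with the secretome. The EV libraries lay between the control and the other treatments with no overlap. Nptx2 rose by 2.36 ± 0.15 and 2.21 ± 0.15 (limma adjusted p = 1.50e-05 and 4.03e-05) and, after EV, by 1.09 ± 0.15 (limma adjusted p = 0.00940, but 0.164 when the 6 EV and control libraries were fitted alone), and was lower in EV than with the 3–100 kDa proteins and than with the secretome (−1.26, limma adjusted p = 0.00264, and −1.12, limma adjusted p = 0.00848). Nptx1, its partner pentraxin, measured 6.03, 2.36 and 3.83 TPM in IC, 4.49, 4.20 and 5.11 in EV, 15.5, 18.2 and 10.9 with the 3–100 kDa proteins and 15.6, 12.3 and 8.24 with the secretome. It rose by 1.71 ± 0.26 (limma adjusted p = 0.00254) and 1.41 ± 0.26 (limma adjusted p = 0.0121), with both groups above all control and EV libraries. Arc and Nptx1 were also lower in EV than with the 3–100 kDa proteins (−2.18, limma adjusted p = 0.0132, and −1.50, limma adjusted p = 0.0175).

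Homer1, whose short Homer1a form is induced by activity and uncouples group I metabotropic receptors, measured 47.8, 28.8 and 58.6 TPM in IC, 35.6, 54.5 and 61.7 in EV, 71.0, 140.0 and 97.1 with the 3–100 kDa proteins and 101, 92.6 and 89.0 with the secretome. Both treated groups lay above the control, and Homer1 rose with the 3–100 kDa proteins by 1.20 ± 0.30 (limma adjusted p = 0.0357). With the secretome it had 1.12 ± 0.30, which did not pass (limma adjusted p = 0.0634). The files give 1 value for all forms of Homer1. Baiap2, an actin regulator of the postsynaptic density, measured 38.4, 33.6 and 29.6 TPM in IC, 43.5, 29.0 and 41.9 in EV, 73.1, 61.3 and 49.6 with the 3–100 kDa proteins and 67.9, 53.6 and 43.8 with the secretome, and rose with the 3–100 kDa proteins by 0.86 ± 0.19 (limma adjusted p = 0.0183). Its secretome value of 0.69 did not pass (limma adjusted p = 0.0658). Grip2, an AMPA receptor scaffold, measured 13.4, 14.0 and 12.7 TPM in IC, 11.0, 11.1 and 12.4 in EV, 10.3, 7.63 and 7.18 with the 3–100 kDa proteins and 9.52, 7.66 and 8.57 with the secretome, and fell with the 3–100 kDa proteins by 0.61 on the log2 scale (SE 0.14, limma adjusted p = 0.0289). Its secretome value of −0.57 did not pass (limma adjusted p = 0.0518). Their EV values lay at or near the control range, below it for Grip2. Some of these calls were lost without single libraries, while the fold changes kept their sign. Over the leave-outs the log2 fold changes with the 3–100 kDa proteins were 0.91 to 1.47 for Homer1, −0.73 to −0.52 for Grip2 and 0.75 to 0.94 for Baiap2. The Homer1 call was lost without any of 8 libraries (control replicates 1 and 2, treated replicates 2 and 3, EV replicate 2 and the 3 secretome libraries, limma adjusted p of 0.0540 to 0.150), and the Grip2 call without any of 5 (the 3 controls and treated replicates 2 and 3, 0.0664 to 0.129). The Baiap2 call was lost without control replicate 3 or treated replicates 1 or 2 (0.0602 to 0.0617). Without secretome replicates 2 or 3 the secretome call of Arc was lost (0.0570 and 0.0507), and without replicate 2 that of Nptx1 (0.0604). Of the differences between EV and another treatment, Arc was lost without replicates 2 or 3 of the 3–100 kDa proteins, Nptx1 without replicates 1 or 2 of the 3–100 kDa proteins or any EV library, and Nptx2 against the secretome without secretome replicates 2 or 3 (highest limma adjusted p 0.0769, 0.103 and 0.0654). Fits of the 6 libraries of a comparison alone also ended the calls of Homer1 and Grip2 (limma adjusted p = 0.122 and 0.121), of Nptx1 with the secretome (0.0694), of Arc for EV against the 3–100 kDa proteins (0.0663) and of Nptx2 for EV against the secretome (0.0871).

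**Figure D5:**
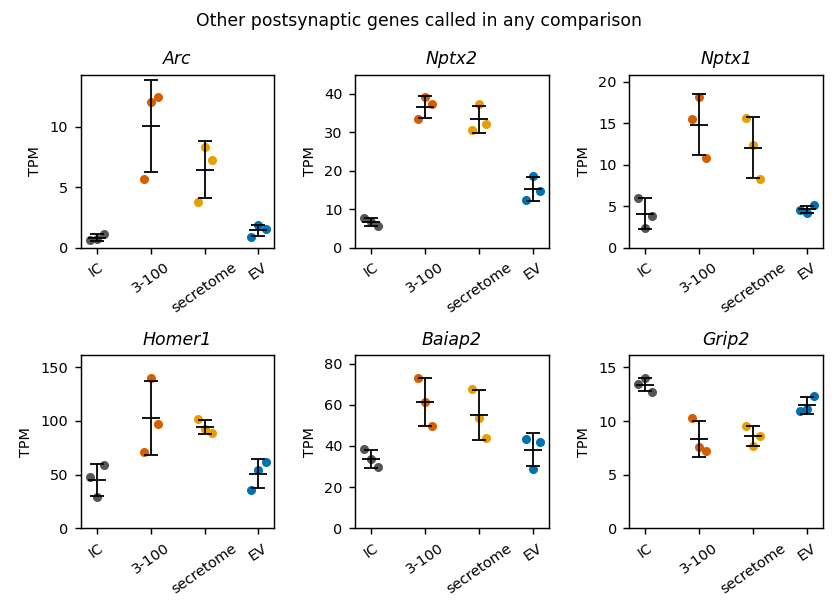
TPM in each library (points), with mean and SD of the 3 libraries (bars), for the 6 genes of the other postsynaptic list called in any comparison, the secreted pentraxins Nptx1 and Nptx2 among them. Arc, Nptx1, Nptx2, Homer1 and Baiap2 are higher and Grip2 lower with the 3–100 kDa proteins than in the control, and in EV Nptx2 is between the control and the other treatments.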

How the data were processed

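Sequencing and quantification were done by the authors. Per the study's methods, reads were trimmed (Trimmomatic, Cutadapt) and transcripts were quantified by Salmon, with gene values made by tximport. The labels name the build Rnor_6.0. The unit is not named in the deposited files. The deposited values sum to 1000000 per library and are not whole numbers, and were taken as the authors' TPM, which hold no counts and no depth. From there, rows of a name were summed, TPM was rescaled by median-of-ratios factors (0.904 to 1.07), genes with a mean of at least 1 TPM over 12 libraries were kept (12861), and limma 3.58.1 in R 4.3.3 (lmFit, contrasts, eBayes with trend) was run on log2(TPM + 1) over all 4 groups without covariates, with Benjamini-Hochberg adjustment and FDR under 0.05. The code was tested on simulated data. Errors are SE for fold changes and SD for levels.

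The 39 genes, the other lists and the tests were chosen with earlier results of these data known. Described in every library were genes called in any comparison, genes at p under 0.05 and over 1.5-fold against the control, and the most abundant gene of each class, with further genes singled out after their values were seen. Overlap of libraries was judged on deposited TPM.

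Same-numbered libraries were compared by correlating deviations from group means over genes. The correlations were 0.222, 0.129 and 0.142 for the secretome and IC, and at least 0.166 for the pairs of treatments. All of these exceeded a limit of 0.1, so these comparisons are called paired here, from the data alone. With IC they were −0.054, −0.152 and 0.454 for EV and −0.001, −0.205 and 0.214 for the 3–100 kDa proteins, and these comparisons are called unpaired. The outcome is not coherent, since the secretome would pair with IC and with both treatments that do not pair with IC. No label ties a replicate number to a culture, so the blocked fits are alternatives and not a known design. The study names a day covariate for a plot of IC and EV, but the labels tie no library to a day, so no day term could be fitted.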

Additional observations from a re-analysis of the deposited data

How the results depend on the processing

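The 26 alternatives changed the scaling, the pseudocount (0.1 or 5), the filter, the summing of rows, the trend, the samples fitted, the replicate block and array weights, and left out each library in turn. The 38 fold changes of single genes were picked for a low p in the main fit, and none reversed. The median fold change over the 37 genes moved by less than 0.123, the spread between replicates, in all 156 cases. That limit is about as large as the medians themselves, so it does not show that they are stable. Most main counts of genes called were 0, and an equal count can hold different genes. Without control replicate 2, the gene called with the 3–100 kDa proteins was Dlg3 and not Dlgap2. With these limits, the number of the 37 genes called was within 1.5 times in 140 of 156 cases. It differed most with array weights, with 2 genes called for EV against IC, 14 for the 3–100 kDa proteins, 10 for the secretome, 9 for EV against the 3–100 kDa proteins and 6 for EV against the secretome; the estimation of these weights stopped before it converged, and they called 1898, 4505, 3243, 2257 and 1308 genes in all and 13 for the secretome against the 3–100 kDa proteins. For the 3–100 kDa proteins against IC, the number was 0 in the blocked fit of the 6 libraries, in which fewer residual degrees of freedom remain, and 0 to 2 over the leave-outs. For the secretome it was 1 with upper-quartile factors, 1 with no filter (Dlg3 both times), 2 with the replicate block over 12 libraries and 0 to 2 over the leave-outs. For EV against the 3–100 kDa proteins it was 1 with the replicate block over 12 libraries.

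Over all genes, fits of the 6 libraries of a comparison called 14 (EV), 389 (3–100 kDa proteins) and 233 (secretome) genes against IC, and 63, 21 and 2 between treatments, where the 12 libraries gave 55, 900, 531, 189, 58 and 0. With the replicate block the 6-library fits called 0, 137, 191, 272, 12 and 3, and the 12-library fits 73, 1242, 849, 305, 107 and 0. Among single genes, 872 results kept their side of the threshold, 28 newly passed, 81 no longer passed and 7 could not be tested. In the unpaired comparisons the block of 6 libraries ended the calls of Dlgap2 (limma adjusted p = 0.131), Nptx1 (0.0856), Baiap2 (0.0897), Homer1 (0.227), Grip2 (0.282), Nefm (0.130) and Pdgfrb (0.0933) with the 3–100 kDa proteins, and that of Nptx2 after EV (0.527); the fit of 6 libraries without a block ended Homer1, Grip2 and Nptx2 (0.122, 0.121 and 0.164), and no filter ended Homer1 (0.0516). In the paired comparisons the fit of 6 libraries ended the calls with and without the block: Nptx1, Nefm and Pdgfrb for the secretome (0.0627, 0.0714 and 0.149 with it, 0.0694, 0.0658 and 0.115 without) and Nptx2 for EV against the secretome (0.0886 and 0.0871). Arc for EV against the 3–100 kDa proteins was lost without the block (0.0663). The 12-library block changed no other call of these 38 results than those given. TPM without rescaling ended Nefm and Pdgfrb for the secretome (0.0759 and 0.0817), and a pseudocount of 0.1 ended Pdgfrb there (0.0911). With leave-outs, a group of 2 libraries shares the spread of the others. Count models were not run because TPM holds no counts, and an exact permutation test of 3 against 3 libraries cannot go below 0.1.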
